A study of Mus musculus with 24 samples.

Results

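Early germinal center (GC) B cells were set against in vivo activated B cells, 3 libraries of each, which are 6 of the 24 libraries in a series on mouse splenic B cells. The members were chosen by their labels alone, and a gene entered the comparison where its deposited log2 value was at least 0 in at least 3 of the 24 libraries. Of 23420 genes in the files, 11885 met that rule.

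Both groups came from the spleen of Balb/c mice, with no transgene, deletion or drug named in their labels. The series describes its GC cells as freshly isolated, and the cells were enriched with beads, stained on their surface and sorted, and mRNA was sequenced as paired reads of 75 bases. The labels do not name the immunogen, the day, the antibodies of the sort, the age or sex of the mice, or whether animals were pooled, so how the in vivo activated cells were obtained is known here only from that name. Naive cells (3 libraries) and peak and late GC cells (6 libraries) are used below as reference levels, and the remaining libraries, of B cells activated in vitro, enter only the gene filter and the estimate of the spread. Values are log2 on a scale like CPM, read counts scaled to a common library total, so that 0 stands for 1 CPM, and values under -5 are called the floor.

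A germinal center is a structure in a lymphoid follicle in which activated B cells divide, mutate their antibody genes and compete for antigen and for help from follicular T cells. The repressor BCL6 is required for the fate, and the receptor S1PR2, acting through the G protein alpha 13, keeps the cells in the follicle. B cells activated in vivo can also divide outside a germinal center, at the follicle border or in extrafollicular foci, where some become plasmablasts.

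In limma, with Benjamini-Hochberg adjustment over all genes tested and a threshold of 0.05 on the adjusted p, 8263 of 11885 genes changed (69.5%). Of these, 3940 were higher in early GC cells (33.2%) and 4323 were lower (36.4%). The difference was at least 2-fold for 2714 genes (22.8%), 1360 higher and 1354 lower, at least 4-fold for 651 and 518, and at least 16-fold for 208 and 93. All 3 libraries of one group lay above all 3 of the other for 8665 genes (72.9%). These shares are the background for every count of list members below. The median difference over all tested genes was -0.03 log2 and the median size of a difference, regardless of sign, was 0.434 log2. The labels name no animals, and the p-values therefore rest on the spread among libraries alone, which may be technical.

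Correlations between libraries over the tested genes were 0.9899 to 0.9906 within early GC cells, 0.9921 to 0.9931 within in vivo activated cells and 0.8904 to 0.8987 between them. GC genes such as Bcl6 and S1pr2 were high in all 3 early GC libraries. The in vivo activated libraries had these genes below naive levels but proliferation genes far above them, as given in the paragraphs that follow. Summed levels of 10 B-cell genes were 7149 to 7699 CPM in early GC and 6499 to 7099 CPM in in vivo activated libraries. Markers of erythroid, myeloid and NK cells were higher in the early GC than in the in vivo activated libraries, with the values given at the end. Fewer cells of a type and less RNA per cell cannot be told apart in such bulk samples.

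**Figure D1:**
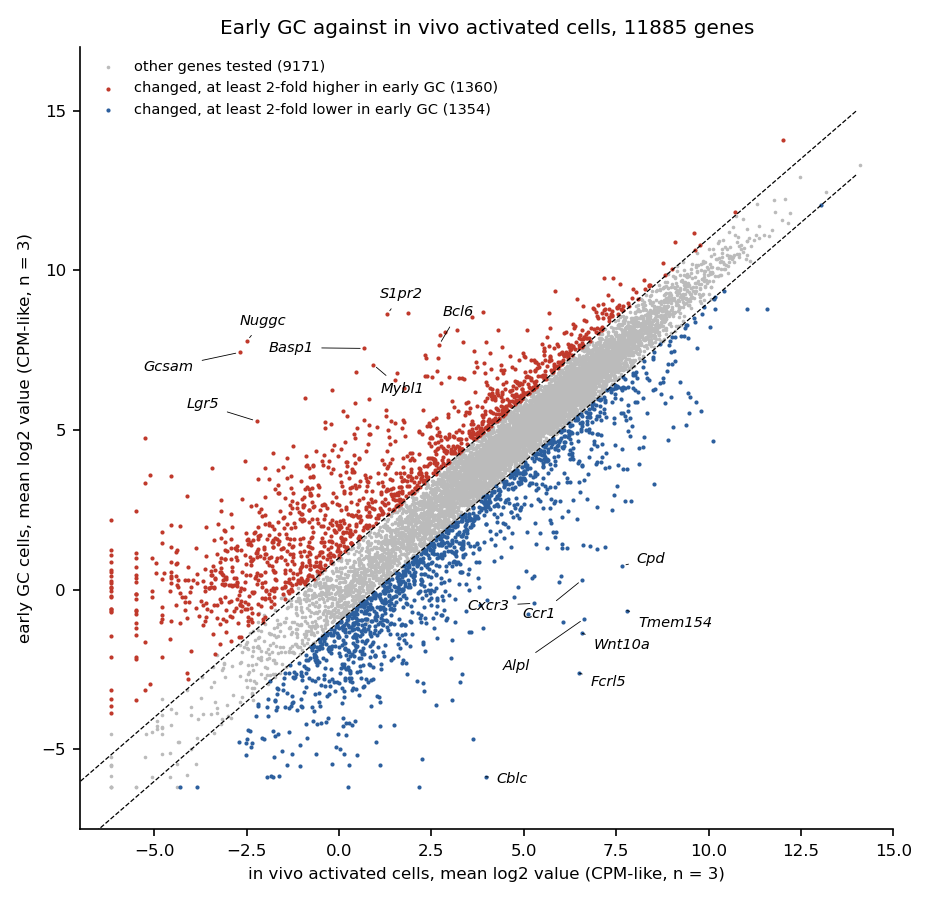
Mean log2 level of each of 11885 tested genes in in vivo activated cells (x axis) and early GC cells (y axis), 3 libraries each. Dashed lines mark a 2-fold difference. The 1360 genes in red and the 1354 in blue changed at least 2-fold, and the points farthest from the lines are GC genes such as Nuggc and Gcsam above and Cblc, Fcrl5 and Wnt10a below.

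Below, values given in threes are log2 levels of replicates 1, 2 and 3, a difference is early GC minus in vivo activated on the log2 scale with its standard error (SE), and positions are on mm10 with the GENCODE M21 annotation. The largest rises were in genes of the GC program. Nuggc (chromosome 14, 65598546 to 65648531), which encodes a nuclear GTPase of germinal centers, was at 7.82, 7.93 and 7.63 in early GC cells and at -3.34, -2.10 and -2.04 in in vivo activated cells, a difference of 10.29 (SE 0.30, adjusted p = 2.47e-17). Gcsam (chromosome 16, 45610380 to 45622867), whose product is a GC adaptor protein, was at 7.41, 7.37 and 7.52 against -2.83, -1.97 and -3.26, a difference of 10.12 (SE 0.28, adjusted p = 2.13e-18). Both genes were far below 1 CPM in every in vivo activated library and near or above 7 log2 in every early GC library.

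S1pr2 (chromosome 9, 20962361 to 20976781), the confining receptor, was at 8.81, 8.58 and 8.50 in early GC cells and 1.28, 1.29 and 1.35 in in vivo activated cells, a difference of 7.32 (SE 0.10, adjusted p = 7.24e-24). Its in vivo activated level was also below that of naive cells, which was 3.18 (SD 0.03). Basp1, a membrane-bound signalling protein gene, was 6.87 higher (SE 0.11), and Lcp2, which encodes the adaptor SLP-76, was 6.93 higher (SE 0.26).

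The other large rises were in genes of several kinds. Lgr5, a receptor of R-spondins known as a stem cell marker in the gut, was at 5.28, 5.33 and 5.24 in early GC cells and -1.94, -2.76 and -2.0 in in vivo activated cells, a difference of 7.51 (SE 0.23, adjusted p = 5.27e-18). Ccrl1, now named Ackr4, encodes a scavenger of the chemokines CCL19 and CCL21. It was at 3.44, 3.77 and 3.48 against -3.69, -3.97 and -5.97, a difference of 8.11 (SE 0.47, adjusted p = 4.15e-13). The scaffold gene Dlg5 was at 4.86, 4.70 and 4.67, and its in vivo activated mean was at the floor, as was that of Gcnt3, a glycosyltransferase gene. Thbs1, the gene for the secreted protein thrombospondin, was 7.25 higher (SE 0.75).

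The largest falls among genes with a higher group mean of at least 10 CPM included a receptor-like gene, a Wnt ligand gene and a phosphatase gene. Fcrl5 (chromosome 3, 87435773 to 87500678), an Fc receptor-like gene of marginal zone and B-1 cells, was at -5.10, 0.13 and -2.88 in early GC cells and 6.42, 6.45 and 6.63 in in vivo activated cells, a difference of -9.12 (SE 1.09, adjusted p = 6.1e-07). Wnt10a (chromosome 1, 74791516 to 74804179), a Wnt ligand gene, was at -0.87, -2.14 and -1.10 against 6.50, 6.62 and 6.63, a difference of -7.95 (SE 0.43, adjusted p = 1.18e-12). Alpl (chromosome 4, 137741733 to 137796384), which encodes alkaline phosphatase, was at -1.27, -0.48 and -1.01 against 6.75, 6.44 and 6.68, a difference of -7.54 (SE 0.18, adjusted p = 4.53e-20). Early GC libraries 1 to 3 were widely spread for Fcrl5, while the in vivo activated libraries of all 3 genes lay within 0.5 log2 of each other.

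Further falls of this size were in Tmem154 (-8.44, SE 0.27), Oosp1 (-8.30, SE 0.61), Slamf9 (-7.05, SE 0.25) and the carboxypeptidase gene Cpd (-6.91, SE 0.32). Cblc, the gene for a ubiquitin ligase of the CBL family, was at 4.01, 3.94 and 3.95 in in vivo activated cells and its early GC mean was at the floor. Creb3l2, which encodes a membrane-bound transcription factor related to ATF6, fell by 5.88 on the log2 scale (SE 0.23). Ccr1, Cxcr7 and Ccl22 are described with the chemokine system.

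Of 20 genes listed as the GC program, 18 rose and 1 fell, with a median difference of 4.36; 2 fell without early GC replicate 3 or without in vivo activated replicate 1. Bcl6 (chromosome 16, 23965052 to 23988852) was at 7.93, 7.66 and 7.41 in early GC cells and 2.35, 2.90 and 2.87 in in vivo activated cells, a difference of 4.96 (SE 0.17, adjusted p = 9.3e-16). The transcription factor gene Mybl1 was at 6.83, 7.18 and 7.14 against 0.72, 1.0 and 1.03, a difference of 6.13 (SE 0.17). In both genes the groups were separated by more than 4 log2 with no overlap. The glycosylase gene Neil1 was 4.95 higher (SE 0.07), Efnb1, an ephrin ligand gene, 4.91 (SE 0.10), Eaf2, an elongation factor partner, 4.97 (SE 0.10) and the plexin gene Plxnb2, whose product binds semaphorins, 3.82 (SE 0.07).

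Smaller rises within the program were those of the death receptor gene Fas (2.37, SE 0.12), Rgs13, an inhibitor of chemokine receptor signalling (2.30, SE 0.14), Mef2b (1.63, SE 0.12) and the coactivator gene Pou2af1 (1.57, SE 0.05). Mef2b, whose product activates Bcl6, was above its naive mean of 2.33 (SD 0.33) in both groups, at 7.25, 7.23 and 7.15 in early GC cells and 5.69, 5.46 and 5.59 in in vivo activated cells. Elk3 was the member that fell (-0.34, SE 0.07). Lmo2 did not pass (-0.18, SE 0.09, adjusted p = 0.0661), but it fell without early GC replicate 3 (-0.24, adjusted p = 0.03) or in vivo activated replicate 1 (-0.27, adjusted p = 0.0113).

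**Figure D2:**
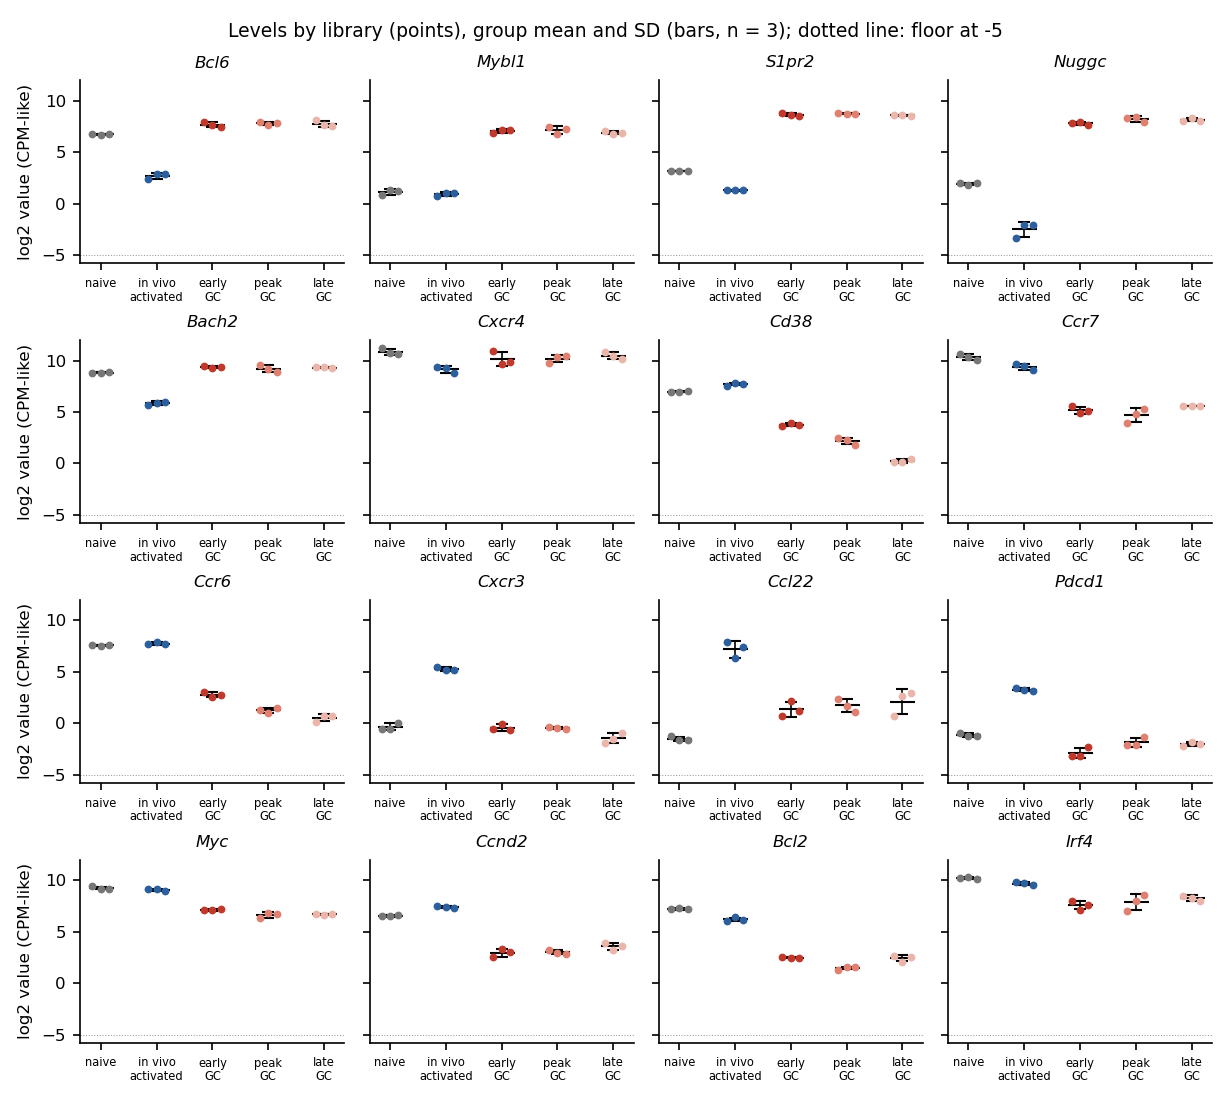
Log2 level (y axis, CPM-like) of 16 genes by library in naive, in vivo activated, early GC, peak GC and late GC cells, with points for libraries and bars for the group mean and SD (n = 3). Bcl6, S1pr2, Nuggc and Bach2 were lowest in in vivo activated cells, and Cxcr3, Ccl22 and Pdcd1 were highest there.

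Among 34 B-lineage and GC transcription factor genes, 17 rose and 14 fell. Bach2 (chromosome 4, 32238804 to 32586108), whose product represses the plasma cell program, was at 9.47, 9.27 and 9.37 in early GC cells and 5.64, 5.88 and 6.01 in in vivo activated cells, a difference of 3.52 (SE 0.11, adjusted p = 9.58e-17). Id3, an inhibitor of E proteins, was 2.34 higher (SE 0.12). Sfpi1, which encodes PU.1, was 1.59 higher (SE 0.07), Foxo1 0.94 (SE 0.05) and the E protein gene Tcf3 0.72 (SE 0.05). Bach2, Id3 and Sfpi1 share an order: early GC cells lay within 0.6 log2 of the naive mean and in vivo activated cells well below it.

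Bhlhe41 (chromosome 6, 145858243 to 145865558), a repressor gene of B-1 cells, was at 1.62, 1.17 and 1.40 in early GC cells and 6.88, 6.58 and 6.32 in in vivo activated cells, a difference of -5.19 (SE 0.32, adjusted p = 2.82e-11). Irf4 (chromosome 13, 30749226 to 30766976), needed for plasma cells at high dose, was at 7.98, 7.15 and 7.58 against 9.80, 9.72 and 9.53, a difference of -2.11 (SE 0.26, adjusted p = 1.05e-06). Prdm1, which encodes the plasma cell regulator BLIMP-1, fell by 1.15 (SE 0.19) on the log2 scale, Batf, an AP-1 family factor gene, by 0.99 (SE 0.10), and Klf2, a regulator of trafficking genes, by 1.44 (SE 0.21). Irf4 and Prdm1 levels were below the naive means of 10.21 and 4.71 in both groups.

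Of 28 mutation and repair genes, 12 rose and 6 fell, with a median difference of 0.13. Polh (chromosome 17, 46171355 to 46202645), which encodes the translesion polymerase eta that writes mutations at A and T bases, was at 7.38, 6.76 and 6.80 in early GC cells and 4.56, 4.90 and 4.57 in in vivo activated cells, a difference of 2.30 (SE 0.18, adjusted p = 8.02e-10). Lig4, the ligase gene of end joining, was at 5.08, 4.93 and 4.76 against 2.61, 2.77 and 2.70, a difference of 2.23 (SE 0.12). The translesion genes Rev1 and Rev3l were 1.67 (SE 0.07) and 1.55 (SE 0.12) higher, and the mismatch repair gene Msh6 0.90 (SE 0.06).

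Other repair genes did not rise. Ung, which encodes the glycosylase that removes uracil, was at 5.98, 6.11 and 6.02 against 6.32, 6.0 and 6.12, a difference of -0.11 (SE 0.08, adjusted p = 0.241). The groups overlapped, and both were above the naive mean of 3.61 (SD 0.13). Apex1, the gene of the abasic site nuclease, fell by 0.54 (SE 0.07), and Xrcc5, a subunit gene of the end-joining factor Ku, fell by 0.72 (SE 0.07) on the log2 scale.

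The genes that position B cells moved in both directions. Of 23 genes of S1P receptors, their G proteins and regulators, and related lipid and nucleotide receptors, 9 rose and 5 fell. Beside S1pr2, its partner gene Gna13 (chromosome 11, 109362831 to 109401369) was at 9.17, 9.08 and 9.16 in early GC cells and 7.86, 7.97 and 7.98 in in vivo activated cells, a difference of 1.20 (SE 0.06, adjusted p = 3.85e-14). Gna12, the gene for the related alpha 12 protein, was 1.06 higher (SE 0.09). P2ry14 was 2.02 higher (SE 0.33).

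S1pr1, the receptor gene that promotes exit into blood, did not pass: it was at 7.2, 5.67 and 5.98 against 6.41, 6.62 and 5.92 (adjusted p = 0.949), with overlapping groups that both lay below the naive mean of 9.38 (SD 0.20). Gpr183 (chromosome 14, 121952551 to 121965195), which encodes the oxysterol receptor EBI2 that draws cells to the follicle edge, was at 5.62, 5.27 and 5.42 against 7.96, 7.83 and 7.41, a difference of -2.29 (SE 0.14, adjusted p = 1.35e-11). The lysophospholipid receptor genes Gpr174 and Gpr55 fell by 3.13 (SE 0.22) and 5.09 (SE 0.40) on the log2 scale. For Gpr183 and Gpr174 both groups were below the naive means of 8.50 and 7.11, early GC cells further so, whereas Gpr55 was above its naive mean of 1.25 in in vivo activated cells and below it in early GC cells.

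Of 17 chemokine receptor genes, 14 were tested, and 5 rose and 7 fell. Cxcr3 (chromosome X, 101731535 to 101734269), the receptor gene for the interferon-induced chemokines, was at -0.52, -0.06 and -0.70 in early GC cells and 5.5, 5.17 and 5.15 in in vivo activated cells, a difference of -5.70 (SE 0.26, adjusted p = 5.28e-15). Ccr6 (chromosome 17, 8236043 to 8257141), the CCL20 receptor gene, was at 3.06, 2.6 and 2.71 against 7.67, 7.90 and 7.67, a difference of -4.96 (SE 0.14, adjusted p = 2.34e-18). Ccr7 (chromosome 11, 99144196 to 99155077), whose product guides cells toward the T zone, was at 5.54, 4.86 and 5.12 against 9.63, 9.46 and 9.04, a difference of -4.20 (SE 0.25, adjusted p = 2.24e-11). Against naive cells the receptors differed: Cxcr3 was 5.62 (SE 0.26) above the naive mean in in vivo activated cells and -0.08 (SE 0.26) from it in early GC cells, while Ccr6 was 0.18 (SE 0.14) from it in in vivo activated cells and -4.78 (SE 0.14) in early GC cells. Both of these differences use the same naive libraries.

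Ccr1, a receptor gene for inflammatory chemokines, was at 1.34, -0.18 and -0.27 in early GC cells and 6.56, 6.98 and 6.17 in in vivo activated cells, a difference of -6.27 (SE 0.55, adjusted p = 8.04e-09). Cxcr7, now named Ackr3, a scavenger receptor for CXCL12, fell by 5.96 (SE 0.49). The CXCL12 receptor gene Cxcr4 (chromosome 1, 128588199 to 128592293), which holds cells in the dark zone, was at 10.88, 9.63 and 9.89 against 9.40, 9.28 and 8.75, a difference of 0.99 (SE 0.33, adjusted p = 0.0125). This call was lost with only the 6 compared libraries (adjusted p = 0.0855), without early GC replicate 1 (0.621, adjusted p = 0.0929) and without in vivo activated replicate 3 (0.798, adjusted p = 0.0603). Cxcr5, the follicle homing receptor gene, was at 8.54, 7.88 and 7.81 against 7.73, 7.90 and 7.64, which overlapped (0.32, SE 0.23, adjusted p = 0.22).

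Genes that mark resting and memory B cells were lower. Of 18 naive follicular genes, 12 fell and 3 rose (median -1.15), and of 14 memory genes 12 fell and 2 rose (median -2.33), with 6 genes on both lists. Cd38 (chromosome 5, 43868553 to 43912375), an ectoenzyme whose loss is used in mice to sort GC cells, was at 3.65, 3.88 and 3.78 in early GC cells and 7.57, 7.80 and 7.71 in in vivo activated cells, a difference of -3.92 (SE 0.11, adjusted p = 1.68e-18). Bcl2 (chromosome 1, 106538178 to 106714274), the survival gene, was at 2.52, 2.45 and 2.42 against 6.07, 6.41 and 6.13, a difference of -3.74 (SE 0.11, adjusted p = 2.18e-18). For Bcl2 the in vivo activated level also lay below the naive mean of 7.22, and for Cd38 it lay above the naive mean of 6.97.

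Cd1d1, which encodes the lipid-presenting molecule CD1d, fell by 4.84 (SE 0.21), and the memory-associated genes Zbtb32, Hhex and Cd80 fell by 2.95 (SE 0.16), 2.87 (SE 0.10) and 2.36 (SE 0.20) on the log2 scale. Rises on these lists were in Nt5e, Il4ra, Fcer2a, Cd22 and Pdcd1lg2. Nt5e, the gene of the ectonucleotidase CD73, was at 5.38, 5.32 and 5.67 in early GC cells and 0.90, 1.78 and 1.11 in in vivo activated cells, a difference of 4.19 (SE 0.22, adjusted p = 7.38e-14). Il4ra, the IL-4 receptor gene, was 1.72 higher (SE 0.08).

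Genes listed for the light zone, where GC cells meet antigen and T cells, were mixed: 6 of 18 rose and 10 fell (median -0.68). The risers included Slamf1 (2.62, SE 0.09), Cd86 (1.08, SE 0.07), Il21r (1.02, SE 0.12) and Cd83 (0.32, SE 0.07), and the fallers included Ccnd2, Ebi3, Irf4, Egr2 and Myc. Of 14 dark zone genes, 7 rose and 1 fell. Gcsam, Bach2 and Polh were among the largest rises, while the mitotic genes on that list differed by less than 0.6 log2. The one that fell, the mitotic kinase gene Aurka, was no longer called without early GC replicate 3 (-0.272, adjusted p = 0.0512), and 3 fell without early GC replicate 2.

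Among costimulatory and checkpoint molecules, 26 of 29 were tested, and 9 rose and 14 fell. Pdcd1 (chromosome 1, 94038305 to 94052553), which encodes the inhibitory receptor PD-1, was at -3.17, -3.19 and -2.29 in early GC cells and 3.45, 3.27 and 3.12 in in vivo activated cells, a difference of -6.17 (SE 0.24, adjusted p = 2.97e-16). Icosl, the ligand gene for ICOS on follicular T cells, was at 6.50, 6.22 and 6.52 against 3.61, 4.37 and 4.05, a difference of 2.41 (SE 0.14, adjusted p = 2.98e-12). Icosl was below its naive mean of 8.10 in both groups, and Pdcd1 was above its naive mean of -1.14 in in vivo activated cells. Tnfrsf18, which encodes GITR, fell by 3.71 (SE 0.15) and Tnfrsf13b, the gene of the receptor TACI, by 1.7 (SE 0.08).

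Of 31 cytokine and chemokine genes, 21 were tested, and 6 rose and 11 fell. Ccl22 (chromosome 8, 94745590 to 94751699), whose product attracts T cells that carry CCR4, was at 0.70, 2.12 and 1.21 in early GC cells and 7.90, 6.30 and 7.43 in in vivo activated cells, a difference of -5.86 (SE 0.48, adjusted p = 3.46e-09). It was above its naive mean of -1.52 by 8.73 (SE 0.48) in in vivo activated cells and by 2.86 (SE 0.48) in early GC cells. Ebi3 (chromosome 17, 55952640 to 55957022), a subunit gene of IL-27 and IL-35, was at 1.27, 1.61 and 1.07 against 5.54, 5.54 and 5.82, a difference of -4.31 (SE 0.13, adjusted p = 4.82e-18). The early GC libraries were lower without overlap for both. The cytokine genes Tnf and Il10 fell by 1.94 (SE 0.18) and 1.74 (SE 0.54), and Tnfsf4, which encodes OX40 ligand, by 3.96 (SE 0.45).

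Ltb (chromosome 17, 35194439 to 35196320), which encodes lymphotoxin beta, a signal to stromal cells of the follicle, went the other way. It was at 9.24, 9.04 and 9.06 in early GC cells and 6.32, 6.50 and 6.49 in in vivo activated cells, a difference of 2.68 (SE 0.13, adjusted p = 1.24e-13). The early GC level differed from the naive mean of 9.04 by 0.07 (SE 0.13), and the in vivo activated level by -2.61 (SE 0.13). Ccl5 and Il1b also rose and are given with the markers of other cells.

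Of 28 interleukin and interferon receptor genes, 9 rose and 15 fell, and 4 rose and 15 fell of the 24 left by a filter of 3 log2. Csf2rb, the shared beta chain gene of the IL-3, IL-5 and GM-CSF receptors, was at 3.21, 3.04 and 2.97 in early GC cells and 6.48, 6.54 and 6.57 in in vivo activated cells, a difference of -3.46 (SE 0.23, adjusted p = 4.6e-11). Il6ra was at 2.82, 2.95 and 2.6 against 5.77, 5.89 and 5.89, a difference of -3.06 (SE 0.24, adjusted p = 4.24e-10). In vivo activated libraries were above the naive means of 4.14 and 3.99 for these receptor genes, and early GC libraries were below them. The receptors of the T-cell cytokines IL-4 and IL-21 were among the risers, as was Il17ra (1.07, SE 0.08). Of 22 JAK-STAT genes, 8 rose and 9 fell, with Socs1, a feedback inhibitor, 2.76 higher (SE 0.15) and Stat4 lower (-2.32, SE 0.25).

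Interferon response genes did not move as one. Of 34, 32 were tested, and 9 rose and 15 fell (median -0.3). Irf7, a regulator of type I interferon genes, was at 5.41, 5.10 and 5.20 in early GC cells and 1.48, 1.7 and 2.08 in in vivo activated cells, a difference of 3.49 (SE 0.14, adjusted p = 5.41e-16). The guanylate-binding protein gene Gbp2 was at 3.03, 3.28 and 3.58 against 5.22, 5.53 and 5.76, a difference of -2.21 (SE 0.14), and Ddx58, which encodes the RNA sensor RIG-I, fell by 1.98 (SE 0.12) on the log2 scale.

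Guidance and adhesion molecules were split as well. Of 24 plexin, semaphorin, ephrin and neuropilin genes, 16 were tested, and 9 rose and 7 fell. Beside Plxnb2, Efnb1 and Efnb2 (3.14, SE 0.26), the fallers were led by Nrp2, a neuropilin gene (-4.31, SE 0.33), and Plxnd1, another plexin gene (-3.52, SE 0.17). Of 24 integrin and adhesion genes, 22 were tested, and 8 rose and 12 fell. Itgb3 (chromosome 11, 104608000 to 104670476), the integrin beta 3 gene, was at 7.57, 7.42 and 7.49 in early GC cells and 3.66, 3.57 and 3.75 in in vivo activated cells, a difference of 3.83 (SE 0.06, adjusted p = 1.13e-23). Its early GC level was -0.10 (SE 0.06) from naive. Itga4, an integrin chain gene that binds VCAM-1, fell by 2.11 (SE 0.12), and the tetraspanin gene Cd9 by 3.27 (SE 0.24).

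The genes of antigen presentation by MHC class II moved together: of 15, 14 rose and 1 fell, with a median difference of 0.89. MHC class II promoters are known for a conserved X-Y module bound by RFX, CREB and NF-Y factors and by the coactivator CIITA. The Y box, written TGATTGG on the strand of the gene, holds a reversed CCAAT box and was searched on both strands in RefSeq promoters of GRCm38.p6, from 250 bases before to 50 after each gene's start. It was found in 7 of 12 promoters of the list (58.3%) and in 2568 of all 32851 promoters (7.82%). Class II genes are already known for the Y box, so these shares do not bear on the change between the groups. The element was chosen after nearly all of these genes were seen to rise, and is shown with 15 bases on each side. Capitals mark the Y box, and each sequence reads 5′ to 3′ on the strand of its gene.
H2-Eb2, chr17:34325558-34325594, plus strand: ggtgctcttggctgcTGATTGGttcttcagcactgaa
H2-Ob, chr17:34238831-34238867, plus strand: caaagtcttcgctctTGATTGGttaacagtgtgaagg
H2-Eb1, chr17:34305791-34305827, plus strand: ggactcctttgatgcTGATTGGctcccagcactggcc
H2-DMb1, chr17:34153113-34153149, plus strand: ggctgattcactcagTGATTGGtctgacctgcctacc
H2-Aa, chr17:34287852-34287888, minus strand: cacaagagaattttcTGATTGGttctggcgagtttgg
A match describes these letters only and is not a measured binding site.

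H2-Eb2 (chromosome 17, 34325665 to 34341412), a class II beta chain gene, was at 6.42, 6.34 and 6.59 in early GC cells and 4.93, 4.97 and 4.94 in in vivo activated cells, a difference of 1.5 (SE 0.09, adjusted p = 1.04e-12). H2-Ab1 (chromosome 17, 34257689 to 34269419), the I-A beta chain gene, was at 11.97, 11.73 and 11.79 against 10.68, 10.78 and 10.72, a difference of 1.10 (SE 0.08, adjusted p = 7.34e-11). H2-Ob, a chain gene of the inhibitor of peptide loading, was 1.16 higher (SE 0.08), H2-Eb1 0.94 (SE 0.06), H2-DMb1, for the loading factor H2-M, 0.95 (SE 0.11) and H2-Aa 0.43 (SE 0.10). All 6 genes separated the groups without overlap. Reads of near-identical copies such as H2-DMb1 and H2-DMb2 could be split in counting, so single values of these are uncertain.

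Ciita (chromosome 16, 10480059 to 10528418), the class II coactivator gene, was at 8.26, 8.15 and 8.28 against 7.18, 7.57 and 7.34, a difference of 0.86 (SE 0.09, adjusted p = 3.02e-08). March1, the gene of a ligase that removes class II from the surface, also rose (1.38, SE 0.14). The invariant chain gene Cd74 was 0.45 higher (SE 0.09). Ctss (chromosome 3, 95526786 to 95556403), the protease gene that trims the invariant chain, was the one that fell, with 7.88, 7.79 and 7.93 against 8.74, 8.78 and 8.82, a difference of -0.91 (SE 0.04, adjusted p = 5.83e-15). Against naive cells the median of the list was -0.42 in early GC cells and -1.22 in in vivo activated cells, both from the same naive libraries.

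Genes of B-cell receptor signalling were less one-sided, with 12 of 28 higher and 9 lower (median 0.1). The kinase genes Syk and Pik3cd were 0.77 (SE 0.09) and 0.90 (SE 0.07) higher and the receptor chain gene Cd79b 0.85 (SE 0.06). The inhibitory receptor genes Fcgr2b and Cd72 fell by 1.18 (SE 0.05) and 1.01 (SE 0.08). Ms4a1, which encodes CD20, was at 10.26, 10.50 and 10.66 in early GC cells and 10.46, 10.58 and 10.48 in in vivo activated cells, and Cd79a at 10.37, 10.35 and 10.41 against 10.25, 10.32 and 10.24. Neither passed, with adjusted p = 0.792 and adjusted p = 0.143.

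The unfolded protein response and secretion genes were lower: of 26, 20 fell and 3 rose, with a median difference of -0.49. Many of these genes are known to be switched on by ATF6 and XBP1 through an ER stress response element, written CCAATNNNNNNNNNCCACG. On both strands of the same promoter set it was found in 8 of 22 promoters of the list (36.4%) and in 39 of 32851 of all (0.119%). The list holds genes already known for this element, so these shares do not bear on the change between the groups. Capitals below mark the element, which overlaps a CCAAT box. The sequences are shown for 3 genes that fell and 1 that rose, 5′ to 3′ on the strand of the gene.
Hsp90b1, chr10:86705623-86705671, minus strand: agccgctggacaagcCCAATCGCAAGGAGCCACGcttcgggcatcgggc
Pdia6, chr12:17266476-17266524, plus strand: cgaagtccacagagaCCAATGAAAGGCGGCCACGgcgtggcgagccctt
Hspa5, chr2:34772010-34772058, plus strand: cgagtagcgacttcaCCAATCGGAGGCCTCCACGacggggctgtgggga
Syvn1, chr19:6046517-6046565, plus strand: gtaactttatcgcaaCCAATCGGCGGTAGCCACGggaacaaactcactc
The Hsp90b1 promoter holds a second match on the other strand. Creld2, Dnajc3, Calr and Canx, which also fell, each had a match.

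Pdia4 (chromosome 6, 47796141 to 47813430), a disulfide isomerase gene, was at 5.02, 5.22 and 5.04 in early GC cells and 8.94, 9.11 and 9.05 in in vivo activated cells, a difference of -3.94 (SE 0.07, adjusted p = 2.56e-22). Hsp90b1 (chromosome 10, 86690209 to 86705509), which encodes the chaperone GRP94, was at 8.76, 8.88 and 8.77 against 11.12, 11.11 and 10.90, a difference of -2.24 (SE 0.08, adjusted p = 8.72e-17). Both genes were above naive in in vivo activated cells and below naive in early GC cells: against the same naive libraries, Hsp90b1 was at 1.40 (SE 0.08) and -0.85 (SE 0.08) and Pdia4 at 1.03 (SE 0.07) and -2.91 (SE 0.07). Hspa5 (chromosome 2, 34771970 to 34777547), which encodes the chaperone BiP, was at 10.39, 10.20 and 10.25 against 10.74, 10.67 and 10.63, a difference of -0.40 (SE 0.06, adjusted p = 9.56e-06). Hsp90b1 and Hspa5, which both had a match to the element, therefore differed in size of change. Pdia4 was not among the genes with a match. The sensor gene Atf6 itself fell by 1.18 (SE 0.07).

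The risers on this list were Herpud1, Syvn1 and Atf4. Herpud1 (chromosome 8, 94386438 to 94395377), a gene of degradation from the ER, was at 8.82, 8.40 and 8.54 in early GC cells and 7.65, 7.59 and 7.57 in in vivo activated cells, a difference of 0.98 (SE 0.12, adjusted p = 1.97e-07). Syvn1 (chromosome 19, 6046576 to 6053712), the ubiquitin ligase gene of that pathway, was at 8.52, 8.33 and 8.24 against 7.69, 7.83 and 7.64, a difference of 0.65 (SE 0.08, adjusted p = 1.66e-07). Atf4, a translation-controlled stress factor gene, was 0.51 higher (SE 0.08).

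**Figure D3:**
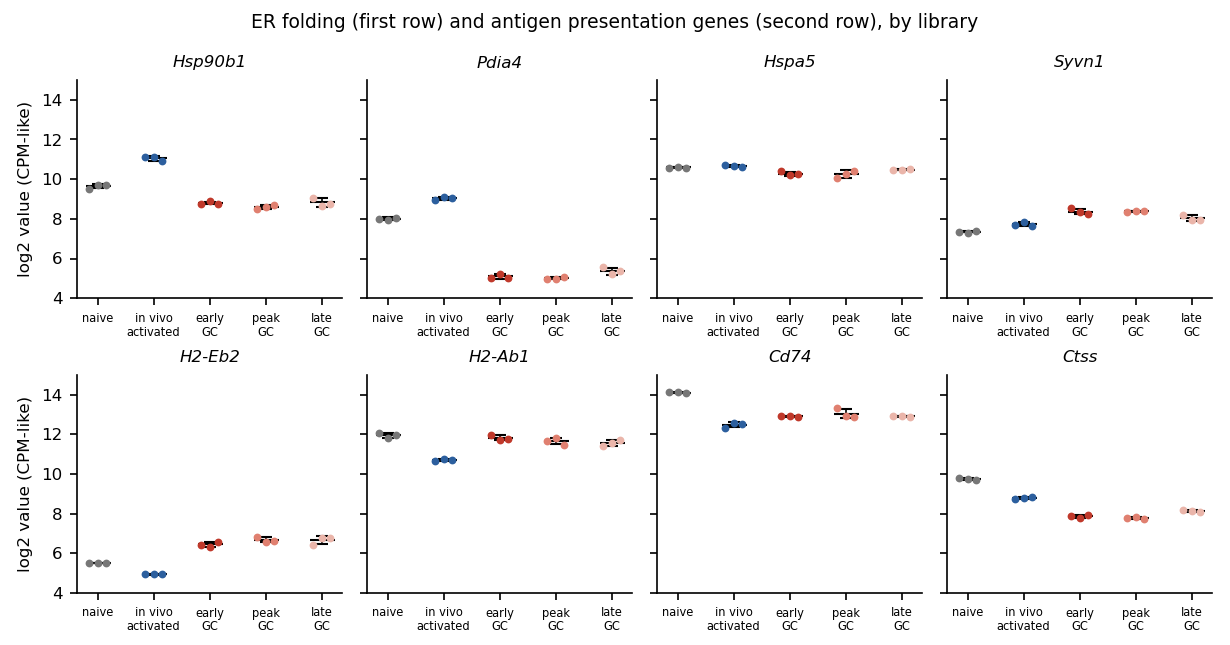
Log2 level (y axis, CPM-like, from 4 to 15) by library of 4 ER protein folding and degradation genes (first row) and 4 antigen presentation genes (second row) in naive, in vivo activated, early, peak and late GC cells, with group mean and SD (bars, n = 3). Hsp90b1 and Pdia4 peaked in in vivo activated cells, Syvn1 was higher in GC cells, and H2-Ab1 and H2-Eb2 were lowest in in vivo activated cells.

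Of 20 plasmablast and plasma cell genes, 19 were tested, and 6 rose and 11 fell (median -0.59). The list shares Pdia4, Creld2, Edem1 and Xbp1 with the unfolded protein response list, and Prdm1 and Irf4 with the transcription factors. Derl3, a gene of ER degradation, was at 3.96, 3.95 and 3.71 in early GC cells and 6.51, 6.55 and 6.67 in in vivo activated cells, a difference of -2.70 (SE 0.12, adjusted p = 2.08e-15). Fkbp11 and Sdc1, which encodes the surface marker CD138, fell by 3.69 (SE 0.33) and 1.44 (SE 0.28). Igj, the joining chain gene of IgM and IgA also named Jchain, was higher instead, with 9.76, 9.76 and 9.73 against 7.23, 7.52 and 7.51, a difference of 2.33 (SE 0.11, adjusted p = 1.05e-13). Mzb1, a helper of antibody secretion, did not differ beyond its error (0.00, SE 0.05, adjusted p = 0.993).

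Of 30 ribosome biogenesis genes, 27 fell and 1 rose, with a median difference of -0.6. Npm1, the nucleophosmin gene, was at 10.30, 10.33 and 10.21 in early GC cells and 11.21, 11.07 and 11.09 in in vivo activated cells, a difference of -0.84 (SE 0.06, adjusted p = 1.86e-11). Polr1c, a subunit gene of RNA polymerases I and III, and Rrp1b fell by 1.04 (SE 0.07) and 1.04 (SE 0.08). Rrs1 was the one that rose (0.63, SE 0.12). The differences on this list were all moderate in size but nearly all in 1 direction.

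Myc (chromosome 15, 61985391 to 61990374), the growth factor-induced transcription factor known to drive ribosome production, was at 7.13, 7.07 and 7.25 in early GC cells and 9.12, 9.14 and 8.99 in in vivo activated cells, a difference of -1.93 (SE 0.10, adjusted p = 5.57e-14). In vivo activated cells were at -0.17 (SE 0.10) and early GC cells at -2.10 (SE 0.10) from the naive mean of 9.25. Of 28 immediate-early genes, 13 fell and 4 rose. Against the same naive libraries the median of that list was -1.72 in early GC cells and -1.27 in in vivo activated cells. Nr4a1, a reporter of antigen receptor signals, was at 8.55, 8.05 and 8.11 against 10.15, 10.11 and 9.88, a difference of -1.81 (SE 0.15, adjusted p = 1.12e-09), and Egr2 fell by 1.8 (SE 0.21). Jund and the phosphatase gene Dusp5 rose, by 1.04 (SE 0.07) and 1.45 (SE 0.13). Of 26 NF-kB components and targets, 11 rose and 12 fell, among them Map3k14, which encodes the kinase NIK (1.0, SE 0.12), and Nfkbid, an inhibitor family gene (-2.23, SE 0.15).

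Both populations carried the transcripts of dividing cells. Mki67, a proliferation marker gene, was at 10.02, 10.16 and 9.81 in early GC cells and 9.22, 9.43 and 9.33 in in vivo activated cells, a difference of 0.67 (SE 0.11, adjusted p = 1.15e-05), against a naive mean of 5.08 (SD 0.15). The median of 30 mitosis genes was 4.97 above naive in early GC cells and 4.92 in in vivo activated cells, both against the same naive libraries. Between the groups, 7 mitosis genes rose and 5 fell, with a median of -0.09. These counts moved with single libraries, to 8 and 1 without early GC replicate 3, 3 and 9 without early GC replicate 2, and 4 and 5 without early GC replicate 1. Leaving out in vivo activated replicate 1, 2 or 3 gave 4 and 2, 6 and 2, or 7 and 3. Of 32 S phase genes, 15 rose and 7 fell (median 0.1), with E2f1 0.81 higher (SE 0.08) and the thymidylate synthase gene Tyms lower (-1.09, SE 0.09).

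Of 23 cell cycle inhibitor and G1 cyclin genes, 13 rose and 7 fell. Ccnd2 (chromosome 6, 127125162 to 127152193), the cyclin D2 gene, was at 2.54, 3.28 and 3.04 in early GC cells and 7.53, 7.43 and 7.33 in in vivo activated cells, a difference of -4.48 (SE 0.15, adjusted p = 2.73e-16). Ccnd3 (chromosome 17, 47505051 to 47599691), the cyclin D3 gene, was at 8.08, 8.16 and 7.97 against 6.04, 6.08 and 6.30, a difference of 1.93 (SE 0.07, adjusted p = 7.39e-17). Against the naive libraries, Ccnd2 was at -3.61 (SE 0.15) in early GC and 0.87 (SE 0.15) in in vivo activated cells, and Ccnd3 at 2.13 (SE 0.07) and 0.21 (SE 0.07). The 2 D-type cyclin genes thus moved in opposite directions, without overlap of libraries in either.

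Among inhibitors, Cdkn2a, which encodes p16 and p19ARF, was at 1.74, 1.8 and 1.13 in early GC cells and -3.53, -3.02 and -3.60 in in vivo activated cells, a difference of 4.94 (SE 0.45, adjusted p = 1.29e-09). Cdkn1a, the p21 gene, was at 3.56, 2.83 and 2.85 against -0.03, 0.37 and 0.09, a difference of 2.94 (SE 0.26). Cdkn1a was below its naive mean of 5.16 in both groups, so its order was naive, early GC, in vivo activated. The retinoblastoma gene Rb1 fell by 2.22 (SE 0.09) on the log2 scale.

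Of 22 pro-apoptotic genes, 19 were tested, and 6 rose and 8 fell. Bbc3, which encodes the BH3 protein PUMA, was at 5.58, 4.38 and 4.83 in early GC cells and 2.26, 2.03 and 2.22 in in vivo activated cells, a difference of 2.76 (SE 0.28, adjusted p = 2.87e-08). Of 14 anti-apoptotic genes, 7 fell and 4 rose. Beside Bcl2, Bcl2l2 fell by 1.79 (SE 0.13), Bcl2l1 by 0.74 (SE 0.09) and the near-identical Bcl2a1 copies, of which Bcl2a1a fell by 2.57 (SE 0.34), as a group. Mcl1, known to be required by GC cells, was at 9.56, 9.35 and 9.44 against 9.53, 9.56 and 9.51, with overlapping groups (-0.08, SE 0.07, adjusted p = 0.257).

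Of 23 chromatin and DNA methylation genes tested, 12 rose and 5 fell. Smarca4, the ATPase gene of the BAF remodelling complex, was at 9.47, 9.51 and 9.28 in early GC cells and 7.88, 7.96 and 8.01 in in vivo activated cells, a difference of 1.47 (SE 0.07, adjusted p = 7.41e-15). Tet2, which encodes an enzyme that oxidises methylated cytosine, was at 2.83, 2.73 and 2.82 against 5.39, 5.57 and 5.38, a difference of -2.65 (SE 0.14, adjusted p = 1.59e-13). The methyltransferase genes were opposed: the maintenance enzyme Dnmt1 rose (0.69, SE 0.07) and the de novo enzyme Dnmt3a fell (-1.56, SE 0.08). Ezh2, the histone methyltransferase gene of proliferating GC cells, did not pass (-0.13, SE 0.06, adjusted p = 0.0666) and lay at 8.0, 8.10 and 7.96 against 8.24, 8.12 and 8.10, above the naive mean of 4.73 (SD 0.14) in both groups. It passed without early GC replicate 2 (-0.17, adjusted p = 0.0325).

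Energy metabolism genes were lower by small amounts. Of 24 TCA cycle genes 16 fell and 2 rose (median -0.22), of 36 complex I genes tested 19 fell and 3 rose (median -0.16), and of 35 genes of complexes III, IV and ATP synthase 21 fell and 4 rose (median -0.18). Without early GC replicate 3, the complex I count was 12 lower and 4 higher. Glycolysis had 15 of 23 lower and 4 higher (median -0.24), led by the regulator gene Pfkfb3 (-1.27, SE 0.07). Among fatty acid oxidation genes, 15 of 22 tested fell and 2 rose (median -0.31). Acadl, a dehydrogenase gene of that pathway, was at 6.48, 6.59 and 6.49 in early GC cells and 7.89, 7.90 and 7.99 in in vivo activated cells, a difference of -1.41 (SE 0.05, adjusted p = 5.27e-17). Cpt1a, the rate-limiting entry enzyme gene of the same pathway, rose, with 7.68, 7.62 and 7.73 against 6.24, 6.45 and 6.14, a difference of 1.40 (SE 0.06, adjusted p = 7.03e-15). The medians of these lists lay above naive in both groups, for example by 0.33 and 0.5 for fatty acid oxidation in early GC and in vivo activated cells.

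Cholesterol synthesis was the metabolic list with most rises: 16 of 23 tested rose and 4 fell (median 0.39). Hmgcs1, a synthase gene of that pathway, was at 7.2, 7.40 and 7.34 in early GC cells. In vivo activated cells had it at 6.09, 6.08 and 6.08, a difference of 1.23 (SE 0.07, adjusted p = 9.28e-13). The sterol-regulated gene Insig1 was 1.17 (SE 0.13) higher, and the isomerase gene Ebp was lower (-1.17, SE 0.08). Cd36, a receptor gene for fatty acids and lipoproteins, was at 5.75, 6.04 and 5.88 against 9.57, 9.74 and 9.69, a difference of -3.78 (SE 0.14, adjusted p = 4.05e-16). Of 18 lipid uptake and lipolysis genes tested, 9 fell and 2 rose (4 without early GC replicate 1), and of 15 serine and one-carbon genes tested, 11 fell and 1 rose.

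The remaining lists were split or changed little. Of 26 autophagy and lysosome genes 9 rose and 12 fell, with the autophagy kinase gene Ulk1 higher (1.65, SE 0.07) and the lysosomal sterol carrier gene Npc2 lower (-1.9, SE 0.13). Of 18 heat shock genes 4 rose and 6 fell, led by the mitochondrial chaperonin gene Hspe1 (-1.41, SE 0.08), and 1 rose without in vivo activated replicate 2. Of 27 peroxisome genes 5 rose and 11 fell, and of 19 KLF, FOXO and quiescence genes 4 rose and 7 fell. Among 13 amino acid transport genes tested 7 rose and 4 fell, and among 7 pentose phosphate genes 2 rose and 3 fell. Of 18 hypoxia genes tested 5 rose and 8 fell, with 3 higher when early GC replicate 1, early GC replicate 3 or in vivo activated replicate 1 was left out. Of 14 fatty acid synthesis and desaturation genes tested 4 rose and 7 fell, with 2 higher when early GC replicate 1, early GC replicate 2 or in vivo activated replicate 2 was left out.

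**Figure D4:**
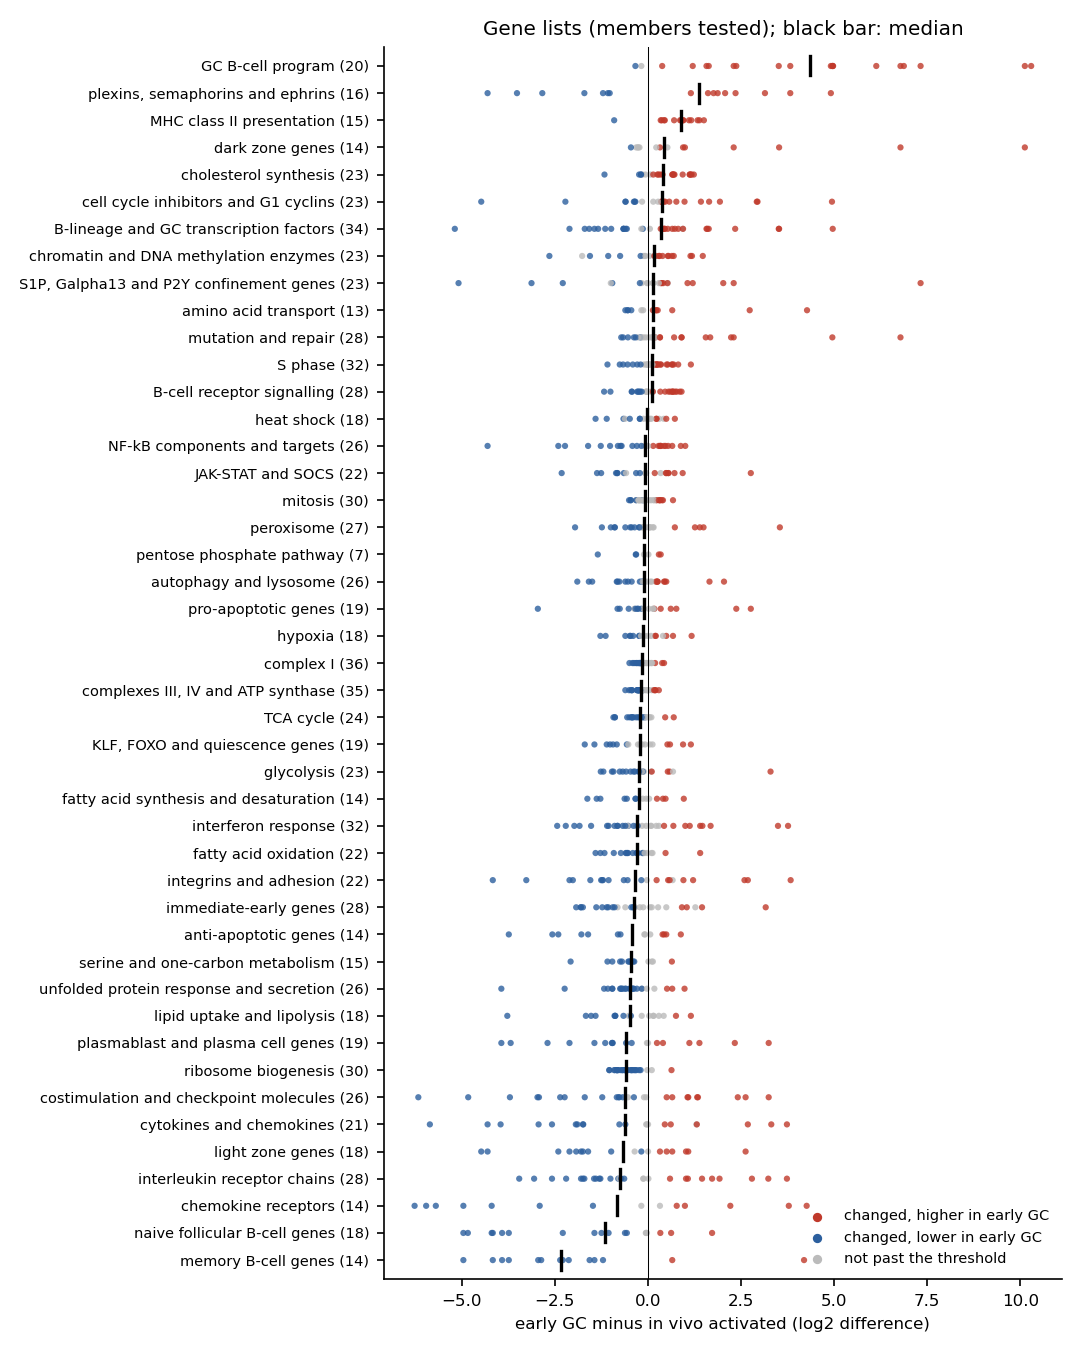
Difference between early GC and in vivo activated cells (x axis, log2) for each tested member of the gene lists (rows), red where higher, blue where lower and grey where not past the threshold, with a black bar at the list median. The GC program lies to the right at a median of 4.36 and memory genes to the left at -2.33, while mitosis genes centre near 0.

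Reference groups placed these differences. Of the 1360 genes at least 2-fold higher in early GC cells, the peak GC mean was nearer to early GC than to in vivo activated cells for 1297 (95.4%) and the late GC mean for 1287 (94.6%). The naive mean was nearer to early GC cells for 655 of them (48.2%). The 1360 genes include markers of other cells, described below. Macrophage and monocyte markers summed to 121.4 to 280.1 CPM in peak GC, 498.8 to 2154 CPM in late GC and 39.81 to 51.51 CPM in in vivo activated libraries. Erythroid markers summed to 172.7 to 205, 735.6 to 1409 and 14.09 to 19.91 CPM in the same order. The part of such genes in these shares was not tested. Of the 1354 lower genes, the peak GC mean was nearer to early GC for 1276 (94.2%), the late GC mean for 1229 (90.8%) and the naive mean for 468 (34.6%). Bcl6, Bach2, Ltb, Itgb3 and Irf7 were among the higher genes whose naive level was nearer to early GC, and S1pr2 and Mybl1 among those whose naive level was nearer to in vivo activated cells.

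Cd38 and Ccr6 continued downward along the GC stages, with means of 3.77, 2.16 and 0.25 for Cd38 and 2.79, 1.27 and 0.54 for Ccr6 in early, peak and late GC cells. Lgr5 was highest in early GC cells, with 5.28, 4.73 and 4.03. Nt5e was lower in early GC cells than at the later stages, with 5.46, 6.84 and 6.67. Rgs13 had 7.31, 8.23 and 8.70. These stage means are given as a description, since only the contrast with in vivo activated cells was tested for them here.

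Markers of neutrophils, NK cells, erythroid cells and macrophages were higher in the early GC than in the in vivo activated libraries. Their part in the results was not tested. Of 7 neutrophil markers 7 rose, of 8 NK cell markers 7, of 5 tested erythroid markers 5 and of 11 tested macrophage and monocyte markers 8, with 1 lower. Summed levels were 26.87 to 131.7 CPM in early GC and 2.911 to 3.684 CPM in in vivo activated libraries for neutrophil markers, 45.49 to 51.15 and 4.681 to 6.553 CPM for NK cell markers, 312 to 742.2 and 14.09 to 19.91 CPM for erythroid markers, and 186.9 to 320.3 and 39.81 to 51.51 CPM for macrophage and monocyte markers. In naive libraries the sums were 25.77 to 36.25 CPM for neutrophil and 53.05 to 92.92 CPM for NK cell markers. They were 90.65 to 101.1 CPM for erythroid and 57.22 to 62.85 CPM for macrophage and monocyte markers. The naive sums were thus above those of early GC for NK cell markers and overlapped them for neutrophil markers. For erythroid and macrophage markers they lay between early GC and in vivo activated sums. Without early GC replicate 2, 5 macrophage markers rose. T-cell markers went the other way in sum, with 131.8 to 137.3 against 216.3 to 230.1 CPM, and 2 of 7 tested rose and 3 fell. Only 1 fell without early GC replicate 1, and only 1 rose without early GC replicate 2. Of 7 dendritic cell markers tested 4 rose and 3 fell, of 6 plasma cell markers 2 rose and 4 fell, and of 10 B-cell markers 5 rose and 3 fell. The platelet marker tested was higher, and of 2 stromal markers tested 1 was lower. Vsig4, Hba-a1 and Hba-a2 were under the floor in all 6 libraries.

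Lyz2, the lysozyme gene of myeloid cells, was at 7.92, 6.84 and 6.98 in early GC cells and 2.04, 2.98 and 2.96 in in vivo activated cells, a difference of 4.58 (SE 0.50, adjusted p = 1.89e-07). Slc4a1, the anion exchanger gene of red cells, was at 6.55, 8.07 and 7.44 against 2.11, 2.09 and 2.78, a difference of 5.03 (SE 0.48, adjusted p = 1.88e-08). Mpo, which encodes myeloperoxidase of granulocyte precursors, was at 6.28, 4.91 and 2.73 against -0.01, -0.10 and 0.59, a difference of 4.48 (SE 0.98, adjusted p = 0.000512). The early GC libraries were not ordered alike: replicate 1 was highest for Lyz2 and Mpo and replicate 2 for Slc4a1.

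Several genes that rose on the lists above are also known from these cells. Vcam1 was at 2.01, 5.37 and 3.54 in early GC cells, and the complement gene C1qa at 0.58, 3.90 and 1.45, both highest in replicate 2. Without early GC replicate 2 the difference of Vcam1 went from 2.59 to 1.73 (adjusted p = 0.0119), and it was not called with only the 6 libraries (adjusted p = 0.0519). C1qa (1.94) was no longer called without early GC replicate 2 (0.98, adjusted p = 0.284), without in vivo activated replicate 2 (1.58, adjusted p = 0.138) or replicate 3 (2.01, adjusted p = 0.0668). It was not called either with no filter (adjusted p = 0.107), only the 6 libraries (0.0946) or the replicate block (0.0551). With neither trended nor robust moderation C1qa also lost its call (adjusted p = 0.0521). Thbs1, named among the largest rises, is also a gene of monocytes and platelets. Ccr2, Ccl5, Il1b and Gzmb were 4.26 (SE 0.41), 3.73 (SE 0.45), 3.31 (SE 0.39) and 3.81 (SE 0.30) higher. The amino acid transporter genes Slc38a5 and Slc43a1, 4.27 (SE 0.40) and 2.73 (SE 0.19) higher, were both lowest in replicate 1 and highest in replicate 2 of the early GC libraries, as Slc4a1 was. For these genes, expression by the GC cells and by other cells in the sorted fraction cannot be told apart.

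Marginal zone B-cell markers were lower, with 6 of 11 down and 2 up and sums of 744.7 to 771.6 CPM in early GC and 2408 to 2954 CPM in in vivo activated libraries. Naive libraries had 2303 to 2464 CPM. Plac8, one of these markers, was at 5.10, 4.59 and 4.25 against 9.87, 10.31 and 10.18, a difference of -5.47 (SE 0.37, adjusted p = 2.51e-10). Cd1d1, Cd9 and Cd36, described above, are also on that list, and whether the share of marginal zone cells differed was not tested.

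**Figure D5:**
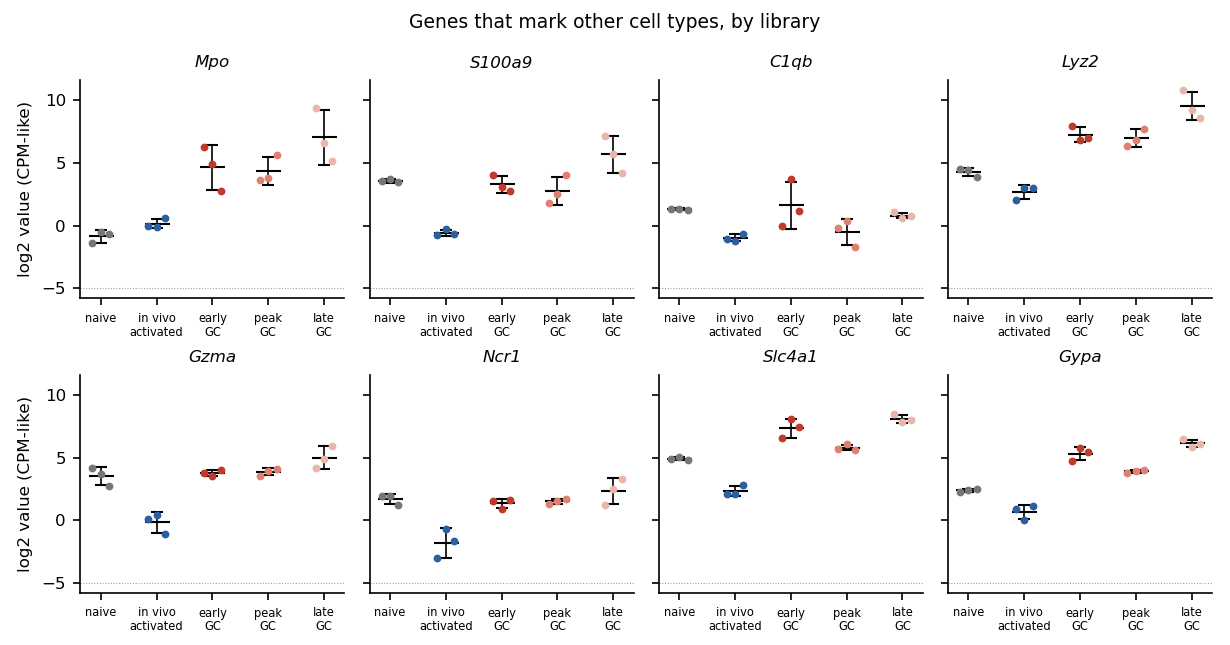
Log2 level (y axis, CPM-like) by library of 8 genes that mark other cell types in naive, in vivo activated, early, peak and late GC cells, with group mean and SD (bars, n = 3). In vivo activated libraries were below all 3 early GC libraries for each of the 8 genes, and the late GC mean was the highest for Mpo, Lyz2 and Slc4a1.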

How the data were processed

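The deposited values are log2 values per gene and library. Raised to a power of 2 they summed to 992516 to 1001090 in the 6 libraries, which places them on a CPM-like scale and leaves the depth unknown. Per the submitters' processing notes, reads were checked with FastQC 0.11.5 and the tools were limma, Subread 1.6.2 with featureCounts, the aligner STAR 2.6.0c and the trimmer cutadapt 1.8.3, on mm10. The authors' normalization is not described there; replicate-number means of each gene differ by at most 0.00088 log2 in the deposited values, so a difference between replicate numbers, if any, had been removed. The files hold 0 immunoglobulin or T-cell receptor segment genes.

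The values were fitted with limma 3.58.1 in R 4.3.3, with a mean for each of the 8 groups, a trended prior variance and robust moderation, which left 16 residual degrees of freedom over the 24 libraries, or 14 if a replicate difference had been removed before deposit. All p-values are two-sided with Benjamini-Hochberg adjustment over 11885 genes, and a gene changed at an adjusted p under 0.05. Tables and figures used matplotlib 3.10.9, pandas 2.3.3 and numpy 2.4.6 under Python 3.11.15. The fit was tested on simulated data. No 2 files were identical (0 pairs). Symbols were matched to GENCODE M21, 21777 directly and 1276 as a synonym, with 367 unmatched.

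The comparison, gene lists and tests were chosen with earlier results of these data known. Named by rule were up to 12 genes per direction with the largest differences among those changed at least 2-fold, with non-overlapping libraries, a gene name and a higher group mean of 10 CPM or more, plus up to 4 members per list with the smallest p, up to 2 per direction, and a set for the label check (224 genes). Further list members, such as Mybl1, Polh, Ciita, Atf6, Cdkn2a and Plac8, were named after their values were seen, and the promoter elements were chosen after the list counts were seen. Several genes selected this way are not reported here. A group mean under -5 gives no fold. Alternatives were other filters, only the 6 libraries, a replicate block, log2(CPM + 1), centring on the median, neither trended nor robust moderation, and leaving out each library.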

Additional observations from a re-analysis of the deposited data

How the results depend on the processing

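Changed genes numbered 6804 to 8954 under the alternatives that kept all libraries and 7761 to 7963 when single libraries were left out, against 8263. Only the 6 libraries gave 8166. The numbers tested differed between filters. The lowest count was 6804 of 9534 (71.4%), with at least 3 log2 in at least 3 of 24 libraries. The highest was 8954 of 23420 (38.2%), with no filter, and the main fit had 8263 of 11885 (69.5%). The 3 log2 filter left 1604 of 9534 genes changed at least 2-fold, against 2714 of 11885. On log2(CPM + 1) there were 1846 of 11885. Deviations of same-numbered libraries correlated at -0.197, -0.208 and -0.17, but equal replicate-number means in the deposited values push these correlations below 0, so they cannot show whether the numbers pair samples. Every group holds the same replicate numbers, so the replicate block cannot change a difference between groups. It lowers the residual degrees of freedom from 16 to 14, the number left if the authors removed a difference between replicate numbers. With the block 7956 genes changed. Other filters moved some list counts: with no filter 5 macrophage markers and 5 mitosis genes rose, with 2 mitosis genes lower, and with the 3 log2 filter 5 of 7 macrophage and 3 of 4 NK cell markers rose. With only the 6 libraries 2 dark zone genes fell. Of 224 genes followed through 14 alternatives, Cxcr4, Aurka, Egln3, Hspa4, Cd3e and Zap70 lost their call in some of them and Cd79a gained one with only the 6 libraries (0.104, adjusted p = 0.0417); none of the 221 called genes changed direction. Ms4a1, not called, ranged from -0.126 to 0.075 when single libraries were left out and changed sign without early GC replicate 1 (0.075) and without in vivo activated replicate 2 (0.003). The list median turned to -1.03 for plexins, semaphorins and ephrins under the 3 log2 filter. It turned to -1.48 for dendritic cell markers where 0 log2 was required in 3 of the 6 libraries. These filters left fewer of the higher members: 6 higher and 7 lower of 13 plexin, semaphorin and ephrin genes, against 9 and 7 of 16. For dendritic cell markers they left 2 higher and 3 lower of 5, against 4 and 3 of 7. Centring moved the median difference by -0.001. With the depth unknown, no limit of detection can be given, and 494 tested genes were under 0 log2 in all 6 libraries.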

Other observations

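Promoters of the genes with the largest differences were searched for 8 short motifs, on both strands from 250 bases before to 50 after the start in the RefSeq table of GRCm38.p6, which held 6 promoters of the higher genes and 11 of the lower ones. The GC box GGGCGG was in 3 of 6 and 4 of 11 of them, against 35.7% of all 32851 promoters, and the box CCAAT was in 1 of 6 and 3 of 11, against 37.4%. The cyclic AMP element TGACGTCA was in the S1pr2 promoter only, against 1.79% of all promoters. The AP-1 motif TGANTCA was in those of Fcrl5 and Tmem154, against 7.81%, the palindrome TTCNNNGAA in that of Dlg5, against 8.3%, and the E-box CACGTG in that of Slamf9, against 7.15%. The interferon-stimulated response element core and the EGR motif GCGGGGGCG were in none of them, against 3.44% and 2.91%. With so few promoters these counts only describe the windows searched.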
